A study of Mus musculus with 6 samples.

Results

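Neurons that have left the cell cycle build axons and dendrites from a shared set of proteins. The expression of 42 genes, for such proteins and for transcription factors and RNA-binding proteins, was compared between RFC1-/- and RFC1+/+ mouse embryos. The genes were picked by symbol, and each had at least 1 Affymetrix probe set annotated to it alone, so that all 42 were measured among the 18194 genes with such a probe set. They code for microtubule proteins, collapsin response mediators, intermediate filament proteins, RNA-binding proteins, transcription factors, proteins of the growth cone, vesicles and excitability, and surface proteins. Whole embryos at embryonic day 9.5 were measured singly on Affymetrix arrays, as 3 littermate pairs of 1 RFC1-/- and 1 RFC1+/+ embryo from 3 litters. RFC1, encoded by the mouse gene Slc19a1, is the reduced folate carrier, a transporter that takes up folate. The RFC1-/- embryos carried 2 inactivated alleles in every tissue, and the labels give them craniorachischisis, a neural tube open from hindbrain to spine, and a chorion and allantois that had not fused, while both structures were normal in the RFC1+/+ embryos. All embryos came from heterozygous parents on the inbred SWV background, and all dams received 25 mg/kg folic acid by daily injection from the start of gestation, so that untreated embryos are not part of the comparison.

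At this stage the neural tube consists mainly of dividing progenitors, and the first neurons arise in the hindbrain, the ventral spinal cord and the cranial ganglia. A cell that becomes a neuron switches on neuronal tubulin and microtubule-binding proteins, then neurofilaments, and it is guided by surface proteins and by the growth cone at the tip of its axon. Genes of synaptic release and of firing are used mostly at later stages. The study describes RFC1-/- embryos at mid-gestation as delayed in development, and no stage of the single embryos beyond the embryonic day is given here. Since each array holds a whole embryo, fewer neurons, less RNA per neuron and a delay in development cannot be told apart.

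The neuron structure genes were lower in RFC1-/- embryos or did not pass the test, and none was higher. Of the 42 genes, 18 fell and 0 rose at an adjusted p under 0.05, which is 42.9% of them lower, where 1.65% of all 18194 genes were called lower and 3.67% were called higher in the same limma fit with the litter as a block. At an unadjusted p under 0.05, 27 of the 42 were lower and 0 higher in limma, where 1464 of all 18194 genes were lower and 1890 higher. Counts at that level for the other gene lists below stand beside the same totals. Lrrn1, Elavl4, Nefm, Stmn3, Tubb3, Stmn2 and Fez1 fell most, between 2.87-fold and 3.52-fold, and Kcna1 fell least, by 1.45-fold. The median log2 difference of the 42 genes, RFC1-/- minus RFC1+/+, was -0.56, and it was -0.63, -0.40 and -0.50 in litters 1, 2 and 3, while the median over all genes was -0.01. The mean difference was below 0 for 37 of the 42 genes (54.0% of all genes), and for 27 of the 42 the 3 RFC1-/- values lay below all 3 RFC1+/+ values (13.4% of all genes). In all 3 litters 31 of the 42 genes were lower, a count for which no share over all genes is given here. The 18 genes that fell were all among them, which a test on these same 3 differences favours, so it adds no evidence. The 5 genes above 0 differed by at most 0.06. Of the 42 genes, 12 stand on the list of changed genes that the study drew from these same embryos, and 11 of those fell, which is no independent evidence of their direction. Camk2b is also on that list, but it differed here by only 0.002 (adjusted p = 0.998 in limma). Of the 30 genes not on that list 7 fell (23.3%), namely Nefm, Nefl, Pou4f1, Map2, Elavl2, Syt11 and Ncam1. All 42 genes were chosen with earlier results of these data known, so neither this share nor the 42.9% is independent evidence.

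**Figure D1:**
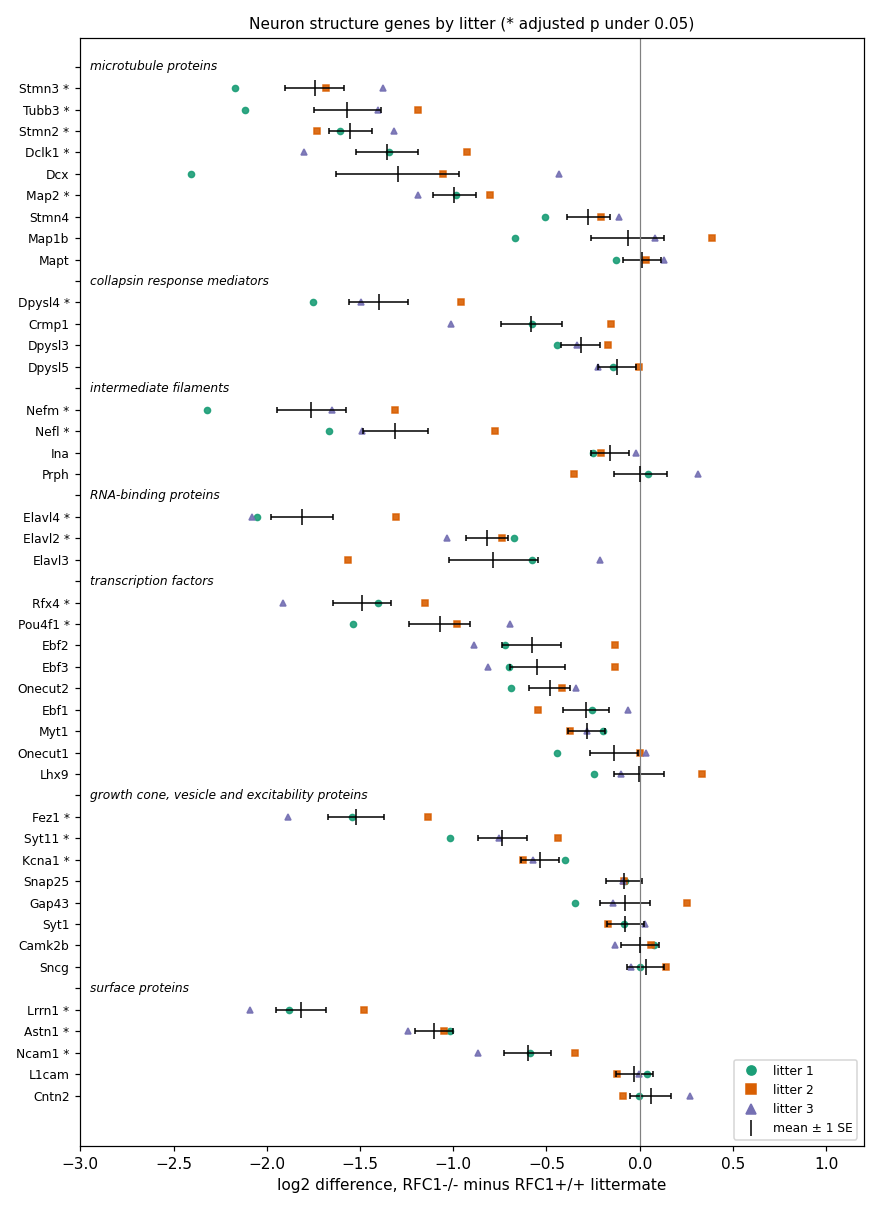
Log2 difference RFC1-/- minus RFC1+/+ for each of the 42 neuron structure genes, by role, with litters 1, 2 and 3 as circles, squares and triangles and the mean ± 1 standard error of the limma fit as black lines. The 18 genes with a star, at an adjusted p under 0.05, have all 3 litters left of 0, and the means of the unstarred genes run from -1.30 for Dcx to 0.06 for Cntn2.

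The arrays gave log2 values on which 5.16 was taken as the background level, the 95th percentile of the mean signal of 81 probe sets for olfactory, vomeronasal and trace amine receptors. On their brightest probe set 33 of the 42 genes lay above it in RFC1-/- embryos and 38 in RFC1+/+ embryos, while Onecut1, Snap25, Lhx9 and Sncg lay below it in both. Some members are not particular to neurons. Ncam1 and Dpysl3 are also made by mesenchyme, Ebf1 by mesoderm, and Rfx4 is known from dividing cells of the neural tube. Slc19a1 itself read 9.97, 10.10 and 9.84 in the RFC1-/- embryos of litters 1, 2 and 3, against 9.11, 9.10 and 8.89 in their RFC1+/+ littermates. The sources used here do not say which part of the gene was deleted, so this signal checks no genotype.

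Among the 9 microtubule genes 5 fell, with a median log2 difference of -1.30 for the group. Stmn3 and Stmn2 code for neuronal stathmins, which bind tubulin dimers and favour the disassembly of microtubules. Stmn3 measured 5.72, 6.28 and 6.13 in the RFC1-/- embryos of litters 1, 2 and 3, against 7.89, 7.96 and 7.50 in the RFC1+/+ embryos. Stmn2 measured 5.66, 5.44 and 5.68 in RFC1-/- embryos, against 7.27, 7.17 and 6.99 in RFC1+/+ embryos. No RFC1-/- value reached an RFC1+/+ value for either gene, and the RFC1-/- values of Stmn2 spanned 0.23. Stmn3 was 3.35-fold lower (-1.74 ± 0.16 on the log2 scale, adjusted p = 0.00519 in limma, with ± for the standard error here and for each difference that follows, n = 3 pairs) and Stmn2 2.93-fold lower (-1.55 ± 0.12, adjusted p = 0.00342 in limma). The probe set of Stmn3 carries the suffix that marks probes shared with other transcripts, and its other probe set differed by -0.78 (adjusted p = 0.0611 over all probe sets, in limma). Stmn4, a further neuronal stathmin, differed by -0.28 (adjusted p = 0.269 in limma).

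Tubb3, the beta-tubulin that is used as a marker of new neurons, measured 5.64, 6.08 and 5.67 in RFC1-/- embryos, against 7.76, 7.27 and 7.08 in RFC1+/+ embryos. The pair of litter 1 differed by -2.12 and those of litters 2 and 3 by -1.19 and -1.40, with a mean of -1.57 ± 0.18 (adjusted p = 0.00858 in limma). Dclk1, a kinase with the microtubule-binding domain of doublecortin, measured 6.48, 6.85 and 5.84 in RFC1-/- embryos, against 7.82, 7.77 and 7.64 in RFC1+/+ embryos. Here the RFC1+/+ embryos were alike and the RFC1-/- embryos spanned 1.01, lowest in litter 3 (2.56-fold lower, ± 0.17 on the log2 scale, adjusted p = 0.0102 in limma). Map2, which binds microtubules in dendrites, measured 7.75, 7.62 and 6.98 in RFC1-/- embryos, against 8.74, 8.42 and 8.17 in RFC1+/+ embryos. The groups did not overlap, and Map2 was 1.99-fold lower (± 0.11 on the log2 scale, adjusted p = 0.00848 in limma, but 0.138 as the mean of its 4 probe sets, of which 3 were below background in both genotypes).

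Dcx, doublecortin, which stabilizes microtubules in migrating neurons, did not pass, although its mean difference of -1.30 was close to that of Nefl. It read 4.23, 4.46 and 4.22 in the RFC1-/- embryos, all below the background level, against 6.63, 5.52 and 4.65 in RFC1+/+ embryos. Only the RFC1+/+ embryos of litters 1 and 2 were above background, so that the difference ran from -2.41 in litter 1 to -0.43 in litter 3 (± 0.33, adjusted p = 0.0783 in limma). A second Dcx probe set passed over all probe sets (difference -1.04, adjusted p = 0.0447 in limma), but its mean was below background in both genotypes. Map1b, an axonal microtubule protein, measured 8.68, 8.59 and 8.52 in RFC1-/- embryos, against 9.35, 8.20 and 8.43 in RFC1+/+ embryos. Its values overlapped, with 95% limits of the difference at -0.53 and 0.40. A second Map1b probe set, above background in both genotypes, differed by -0.41 without passing (adjusted p = 0.265 over all probe sets, in limma). Mapt, which codes for tau, measured 5.71, 5.77 and 5.82 in RFC1-/- embryos, against 5.84, 5.74 and 5.69 in RFC1+/+ embryos, and the limits of its difference were -0.23 and 0.26.

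**Figure D2:**
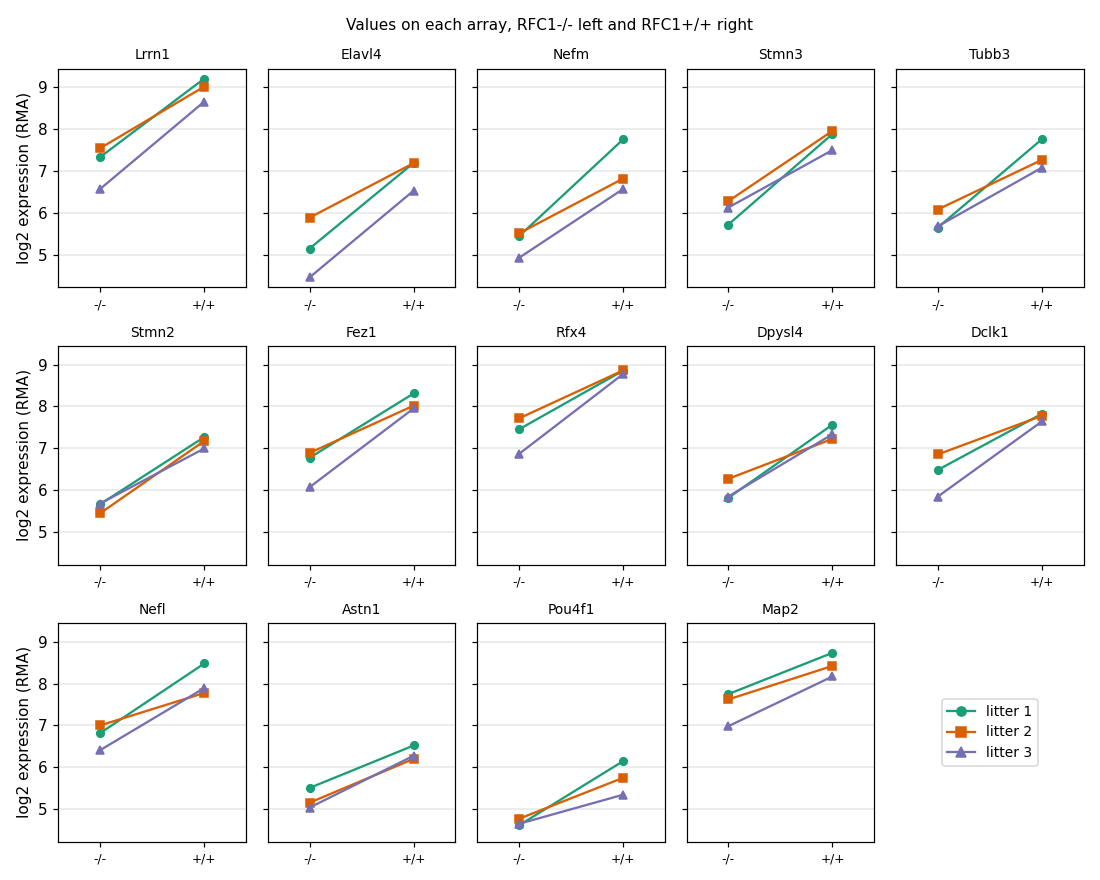
Log2 expression (RMA) on each array for the 14 genes with the largest falls, RFC1-/- at the left and RFC1+/+ at the right of each panel, with a line joining the littermates of each litter. Every line climbs to the RFC1+/+ side, and within each panel the highest RFC1-/- point lies below the lowest RFC1+/+ point.

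Of the 4 genes for collapsin response mediators, which pass semaphorin signals to the cytoskeleton of the growth cone, Dpysl4 alone passed. Dpysl4 measured 5.81, 6.27 and 5.84 in RFC1-/- embryos, against 7.56, 7.22 and 7.33 in RFC1+/+ embryos. Its pairs differed by -1.75, -0.96 and -1.49, least in litter 2 (2.64-fold lower, ± 0.16 on the log2 scale, adjusted p = 0.00846 in limma). Its brightest probe set may also bind related transcripts, as its suffix states, and the other 2, both below background, differed by -0.10 and -0.26. Crmp1 differed by -0.58 (adjusted p = 0.107 in limma), Dpysl3 by -0.32 and Dpysl5 by -0.12. For Crmp1 and Dpysl3 the groups did not overlap, and the Crmp1 pair of litter 2 differed by -0.15 where that of litter 3 differed by -1.01.

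Both neurofilament genes on the list fell, and the other 2 intermediate filament genes did not pass. Nefm, the medium neurofilament chain, measured 5.44, 5.51 and 4.92 in RFC1-/- embryos, against 7.76, 6.82 and 6.57 in RFC1+/+ embryos. Nefl, the light chain, measured 6.82, 7.00 and 6.41 in RFC1-/- embryos, against 8.48, 7.78 and 7.89 in RFC1+/+ embryos. For both genes the RFC1+/+ embryo of litter 1 was the highest of the 6 and the RFC1-/- embryo of litter 3 the lowest. Nefm was 3.39-fold lower (± 0.19 on the log2 scale, adjusted p = 0.00709 in limma) and Nefl 2.48-fold lower (± 0.18, adjusted p = 0.0121 in limma). The second Nefl probe set gave 2.34-fold. Ina, alpha-internexin, differed by -0.16 (adjusted p = 0.507 in limma). Prph, peripherin of peripheral and motor neurons, measured 5.28, 5.21 and 5.39 in RFC1-/- embryos, against 5.24, 5.57 and 5.07 in RFC1+/+ embryos. The genotypes overlapped and the difference of Prph was below 0 in litter 2 only.

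The Elavl genes code for neuronal Hu proteins, which bind and stabilize mRNAs of differentiating neurons. Elavl4 measured 5.14, 5.88 and 4.45 in RFC1-/- embryos, against 7.20, 7.19 and 6.53 in RFC1+/+ embryos. Its mean in RFC1-/- embryos was not above background, and the difference of -1.81 ± 0.17 (adjusted p = 0.00523 in limma) was largest in litters 1 and 3. A second Elavl4 probe set, above background in both genotypes, differed by -1.18 without passing (adjusted p = 0.0622 over all probe sets, in limma). A further one, below background in RFC1-/- embryos, differed by -0.93 and passed (adjusted p = 0.0440 over all probe sets, in limma). Elavl2, which is also on early in the neural tube, measured 8.36, 8.54 and 8.37 in RFC1-/- embryos, against 9.04, 9.28 and 9.41 in RFC1+/+ embryos. Its littermates differed by -0.68, -0.74 and -1.04 without overlap (1.76-fold lower, adjusted p = 0.0127 in limma), and 3 of its 5 probe sets passed over all probe sets. Elavl3 measured 6.22, 6.14 and 6.43 in RFC1-/- embryos, against 6.80, 7.71 and 6.64 in RFC1+/+ embryos. The groups of Elavl3 did not overlap either, but the pair of litter 2 differed by -1.56 and that of litter 3 by -0.21 (adjusted p = 0.128 in limma).

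All 9 transcription factor genes had a mean difference below 0, and 2 of them fell. Rfx4, a factor needed for the dorsal midline of the brain, measured 7.45, 7.71 and 6.86 in RFC1-/- embryos, against 8.86, 8.86 and 8.78 in RFC1+/+ embryos. The RFC1+/+ values spanned 0.09 and the RFC1-/- embryo of litter 3 was lowest (2.81-fold lower, ± 0.15 on the log2 scale, adjusted p = 0.00683 in limma). Pou4f1, a factor of sensory neurons, measured 4.61, 4.76 and 4.64 in RFC1-/- embryos, all below background, against 6.14, 5.75 and 5.34 in RFC1+/+ embryos. Its difference of -1.07 ± 0.16 (adjusted p = 0.0174 in limma) followed the RFC1+/+ embryos, from -1.54 in litter 1 to -0.70 in litter 3.

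The 3 Ebf genes, whose factors act in neurons that leave the ventricular layer, did not pass. Ebf2 and Ebf3 differed by -0.58 and -0.55 (adjusted p = 0.0939 and 0.0943 in limma). On these brightest probe sets each differed by -0.13 in litter 2 and by -0.70 to -0.89 in litters 1 and 3. Another Ebf3 probe set differed by -0.70 in litter 2 and a further one by -0.27, and neither passed over all probe sets. Ebf1 measured 5.65, 5.39 and 5.39 in RFC1-/- embryos, against 5.90, 5.94 and 5.45 in RFC1+/+ embryos, with overlap. Onecut2, a factor of motor neurons and other early neurons, measured 5.07, 5.07 and 4.89 in RFC1-/- embryos, against 5.76, 5.49 and 5.23 in RFC1+/+ embryos. The Onecut2 difference of -0.48 narrowly missed the threshold (adjusted p = 0.0608 in limma). Another of its probe sets passed over all probe sets (adjusted p = 0.00709 in limma), but it was below background in RFC1-/- embryos, with 4.27, 4.20 and 3.89, and close to it in RFC1+/+ embryos, with 5.21, 5.24 and 5.15, so that the size of its difference is not measured. Myt1, a zinc finger protein of new neurons, differed by -0.28 (adjusted p = 0.181 in limma). Onecut1 read 4.66, 4.53 and 4.43 in RFC1-/- embryos, against 5.11, 4.53 and 4.40 in RFC1+/+ embryos, which gives no level above background.

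Lhx9, a factor of dorsal interneurons, stood apart in 1 embryo. Its brightest probe set was below background throughout and differed by less than 0.01. A second probe set read 3.55, 3.66 and 3.42 in RFC1-/- embryos, against 6.03, 3.98 and 3.77 in RFC1+/+ embryos. A further one read 3.33, 3.24 and 3.34 in RFC1-/- embryos, against 6.16, 3.89 and 3.70 in RFC1+/+ embryos. Both of these were above background only in the RFC1+/+ embryo of litter 1, and neither passed over all probe sets (adjusted p = 0.265 and 0.205 in limma).

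Of the 8 genes for proteins of the growth cone, vesicles and excitability, 3 fell, and the median of the group was -0.08. Fez1, an adaptor that links cargo to kinesin in growing axons, measured 6.77, 6.89 and 6.07 in RFC1-/- embryos, against 8.31, 8.02 and 7.95 in RFC1+/+ embryos. It was 2.87-fold lower (± 0.15 on the log2 scale, adjusted p = 0.00635 in limma), most in litter 3. Syt11, a synaptotagmin of intracellular vesicles, measured 7.13, 7.76 and 7.13 in RFC1-/- embryos, against 8.14, 8.20 and 7.88 in RFC1+/+ embryos. It was 1.67-fold lower (adjusted p = 0.0279 in limma), but 0.148 without litter 1, and the other 4 of its probe sets differed by -0.43 to -0.75 without passing over all probe sets. Kcna1, a potassium channel subunit, measured 5.75, 5.85 and 5.86 in RFC1-/- embryos, against 6.15, 6.48 and 6.43 in RFC1+/+ embryos. Kcna1 was 1.45-fold lower with no overlap (adjusted p = 0.0341 in limma, and 0.126 without either litter 1 or litter 2), and its other 2 probe sets that fell were below background in RFC1-/- embryos.

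The remaining 5 genes of this group differed by 0.08 or less in either direction. Gap43, a protein of the growth cone membrane, measured 8.71, 8.82 and 8.33 in RFC1-/- embryos, against 9.06, 8.56 and 8.47 in RFC1+/+ embryos. Its genotypes overlapped, and the 95% limits of the difference, -0.40 and 0.24, leave out the falls of Fez1, Tubb3 and the neurofilament genes. Syt1, the calcium sensor of synaptic release, measured 5.71, 5.77 and 5.63 in RFC1-/- embryos, against 5.80, 5.94 and 5.60 in RFC1+/+ embryos. Camk2b, a kinase of synapses, measured 5.31, 5.43 and 5.15 in RFC1-/- embryos, against 5.23, 5.37 and 5.28 in RFC1+/+ embryos. Both overlapped between genotypes. Snap25 of the vesicle fusion machinery and Sncg, gamma-synuclein, were below background in all groups.

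Of the 5 surface genes 3 fell. Lrrn1, a leucine-rich repeat protein of the membrane, measured 7.33, 7.55 and 6.57 in RFC1-/- embryos, against 9.21, 9.02 and 8.66 in RFC1+/+ embryos. Its difference of -1.82 ± 0.14 (adjusted p = 0.00342 in limma) was -1.48 in litter 2 and -2.09 in litter 3, and the mean of its 3 probe sets, 2 of them below background, differed by -0.66. Astn1, astrotactin, by which young neurons hold on to glial fibres, measured 5.50, 5.15 and 5.03 in RFC1-/- embryos, against 6.52, 6.20 and 6.28 in RFC1+/+ embryos. The 3 pairs differed by -1.02, -1.05 and -1.24, so that Astn1 was 2.15-fold lower with little spread between litters (± 0.10 on the log2 scale, adjusted p = 0.00551 in limma). Ncam1, the neural cell adhesion molecule, measured 8.98, 8.95 and 8.52 in RFC1-/- embryos, against 9.56, 9.29 and 9.39 in RFC1+/+ embryos. Ncam1 was 1.52-fold lower (adjusted p = 0.0444 in limma), with 0.180 without litter 1, 0.0666 without litter 3 and 0.207 as the mean of its 7 probe sets (difference -0.25), and none of its 7 probe sets passed over all probe sets.

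The axonal surface genes L1cam and Cntn2 did not pass. L1cam differed by -0.03, with 95% limits of -0.26 and 0.21. Cntn2, which marks commissural axons, measured 6.07, 6.09 and 6.13 in RFC1-/- embryos, against 6.07, 6.18 and 5.86 in RFC1+/+ embryos, with limits of -0.21 and 0.32.

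All 122 probe sets of the 42 genes were also read from a fit over all 45101 probe sets. Of the 122, 28 fell and 0 rose (0.882% of all probe sets were called lower and 1.87% higher), while 63 were lower and 0 higher at an unadjusted p under 0.05 in limma, and the 28 represented 19 genes. Stmn2, Nefl, Elavl4, Dclk1, Elavl2 and Kcna1 had more than 1 probe set that fell, 3 of 9 for Dclk1 and 2 of 2 for Stmn2 and Nefl. Of the 122 probe sets 57 lay below background in both genotypes, and 26 of the 28 that fell were among the 65 others. Without litter 1 the count of 28 became 8. Among 43 probe sets that passed the 1.5-fold variation filter of the methods, those of Lrrn1, Elavl4, Nefm, Stmn3 and Tubb3 passed the adjusted 0.001 level of the methods in limma (11.6%, where 1.54% of all filtered probe sets were called lower). That fit gave every filtered probe set the same standard error of 0.389, so that its calls went by the size of the difference alone, and the count of 5 was 0 without litter 1, 1 without litter 2 and 8 without litter 3. At the same level 0 of the 43 passed in the random-variance test, which keeps a variance for each probe set (35 at an unadjusted p under 0.05), and 0 of the 122 passed in limma without the filter (63 at an unadjusted p under 0.05). In both of these settings 0 probe sets of the whole array passed, so the counts of 0 do not set these genes apart. For the counts at an unadjusted p no share over all probe sets is given here.

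**Figure D3:**
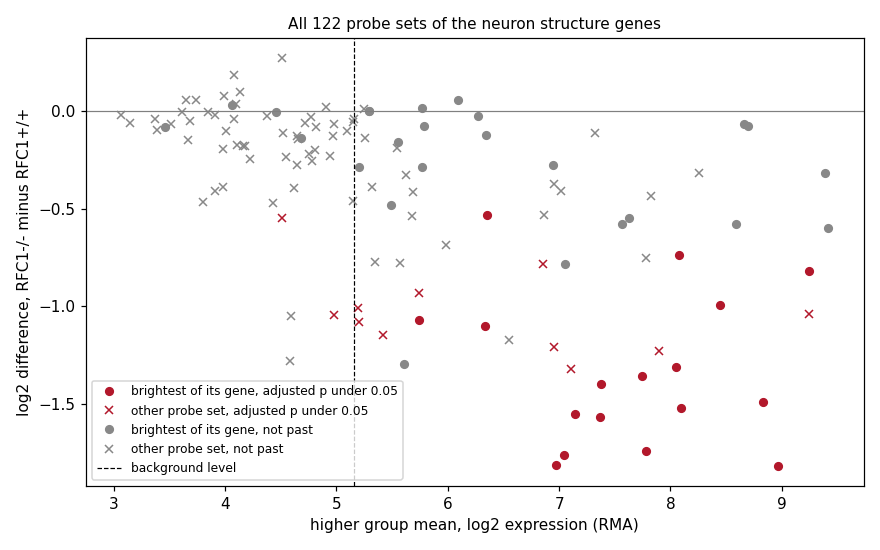
Log2 difference RFC1-/- minus RFC1+/+ against the higher of the 2 group means for the 122 probe sets, with circles for the brightest probe set of each gene, crosses for the others, red for an adjusted p under 0.05 over all probe sets and a dashed line at the background level of 5.16. Left of the line 2 of 57 probe sets are red, and right of it 26 of 65.

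The litters did not contribute alike. Among the 18 genes that fell, the largest of the 3 differences belonged to litter 3 for 9 genes, to litter 1 for 7 and to litter 2 for 2. Their median difference was -1.54, -1.02 and -1.39 in litters 1, 2 and 3. The highest of the 6 values was that of the RFC1+/+ embryo of litter 1 for 25 of the 42 genes and for 13 of the 18 that fell. For these counts too no share over all genes is given here. The RFC1-/- embryos were male in litters 1 and 2 and female in litter 3, and the RFC1+/+ embryos male in litters 1 and 3 and female in litter 2, as read from Xist and Y-linked genes. With sex in the model 23 of the 42 genes fell. A fit with sex leaves fewer degrees of freedom for the spread than the litter fit, which had 2. Littermates differed in sex only in litters 2 and 3, so the higher count is no added evidence.

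Promoter sequence was looked at for genes that fell together, and 4 windows are shown, those of Tubb3, Stmn3 and Lrrn1, the 3 genes with a single annotated start among the 5 largest falls, and that of Map1b, whose level did not differ detectably. Each runs over the 250 bases before the start that RefSeq gives on GRCm38.p6, 5′ to 3′ on the gene's strand, and capitals mark the motifs searched on both strands. The motifs were the GC box with the letters GGGCGG, the TATA box with the letters TATAAA, the CCAAT box, 2 forms of the E-box that proneural factors can bind, which read CAGCTG in the first form and CAGATG in the second form, and the letters TCAGCACC as part of the site of the repressor REST.
Tubb3 (chr8:123411303-123411552, plus strand): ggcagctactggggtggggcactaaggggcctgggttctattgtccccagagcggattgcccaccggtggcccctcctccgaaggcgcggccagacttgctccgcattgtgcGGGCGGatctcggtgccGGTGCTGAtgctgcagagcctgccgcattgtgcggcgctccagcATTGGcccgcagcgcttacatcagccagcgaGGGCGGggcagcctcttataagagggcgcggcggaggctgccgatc
Stmn3 (chr2:181314501-181314750, minus strand): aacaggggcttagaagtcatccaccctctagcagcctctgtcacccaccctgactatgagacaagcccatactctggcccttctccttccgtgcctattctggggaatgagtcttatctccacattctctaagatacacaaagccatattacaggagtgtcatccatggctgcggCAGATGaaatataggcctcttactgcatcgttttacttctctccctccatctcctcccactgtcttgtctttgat
Lrrn1 (chr6:107529476-107529725, plus strand): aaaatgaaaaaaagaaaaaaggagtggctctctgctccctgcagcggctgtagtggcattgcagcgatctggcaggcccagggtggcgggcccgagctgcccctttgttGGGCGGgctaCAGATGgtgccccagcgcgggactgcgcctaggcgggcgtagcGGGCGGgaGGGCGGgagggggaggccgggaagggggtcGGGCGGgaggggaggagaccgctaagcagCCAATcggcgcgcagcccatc
Map1b (chr13:99516603-99516852, minus strand): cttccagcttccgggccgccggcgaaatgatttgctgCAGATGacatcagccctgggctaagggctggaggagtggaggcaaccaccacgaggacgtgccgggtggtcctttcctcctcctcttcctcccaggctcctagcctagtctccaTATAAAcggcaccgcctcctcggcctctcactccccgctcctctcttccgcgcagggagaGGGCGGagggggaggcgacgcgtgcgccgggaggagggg
The Tubb3 window held a match to the REST site part with GC boxes and a CCAAT box, and that of Stmn3 held 1 CAGATG E-box alone. The Lrrn1 window held the same E-box with GC boxes and a CCAAT box, and that of Map1b held it with a TATA box and a GC box. Promoters were matched for 29 of the 42 genes, with 48 windows in all, some of which overlap, and none was matched for Nefm, Stmn2, Dpysl4, Nefl, Ncam1, Ebf2, Kcna1, Onecut2, Dpysl3, Stmn4, Snap25, Gap43 and Mapt. CAGATG was in 25.0% of the 24 windows of genes that fell, 16.7% of the 24 windows of genes that did not pass and 14.4% of all 32851 windows, and CAGCTG in 16.7%, 12.5% and 13.0%. GC boxes were in 45.8%, 58.3% and 32.7%, TATA boxes in 4.17%, 20.8% and 12.4%, CCAAT in 58.3%, 33.3% and 33.8%, and TCAGCACC in 4.17%, 0% and 1.32%. Some genes, such as Elavl2 and Elavl4, count with several windows. By gene, with 12 that fell, 17 that did not pass and 27025 in all, CAGATG was in 33.3%, 17.6% and 16.3%. CAGCTG was in 25.0%, 17.6% and 14.7% of genes, and GC boxes in 58.3%, 70.6% and 35.4%. TATA boxes were in 8.33%, 23.5% and 14.3%, CCAAT in 58.3%, 35.3% and 37.5%, and TCAGCACC in 8.33%, 0% and 1.49%. Such matches describe the letters of these windows and no binding was measured.

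Other genes of neurons, 48 of which were measured, formed a separate list. Of these 8 fell and 0 rose (16 lower and 2 higher at an unadjusted p under 0.05 in limma), with a median of -0.15, and the count of 8 was 3 without litter 1. St18, a zinc finger factor of the Myt1 family, was lower by 1.53 on the log2 scale and lay below background in both genotypes (adjusted p = 0.0301 in limma). Nova1, an RNA-binding protein of neuronal splicing, was 2.05-fold lower, Tagln3 1.90-fold and Nhlh2, a bHLH factor of new neurons that was also below background in both genotypes, 1.87-fold. The other neuron list and the 42 genes were drawn up separately by hand, so their shares were not tested against each other.

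Markers of other cell types moved with genotype in the same embryos. Of 30 neural progenitor genes 16 fell and 0 rose (21 lower and 1 higher at an unadjusted p under 0.05 in limma), with a median of -0.64, and Pou3f3, Dbx1, Zic1 and Fabp7 fell most, between 2.72-fold and 4.55-fold. Their summed level lay between 12.5 and 13.1 in RFC1-/- embryos, against 13.6 to 13.7 in RFC1+/+ embryos on the log2 scale, and that of the 42 neuron structure genes between 12.0 and 12.4 in RFC1-/- embryos, against 12.8 to 13.2 in RFC1+/+ embryos. By litter, the progenitor median was -0.59, -0.40 and -0.97, so both lists had the median closest to 0 in litter 2. All 23 measured visceral endoderm genes rose, most of all Cubn, Apoa1, Apob and Slc2a2, with a summed level of 14.7 to 16.2 in RFC1-/- embryos, against 11.9 to 12.9 in RFC1+/+ embryos. The study took the extraembryonic membranes for genotyping, and whether some of this tissue stayed with an embryo was not tested. Of 13 primitive erythroid genes 8 fell, most of all Hba-x, Slc4a1, Hbb-bh1 and Hbb-y, with a summed level of 10.3 to 12.2 in RFC1-/- embryos, against 14.8 to 15.4 in RFC1+/+ embryos. Of 10 cardiomyocyte genes 8 rose, led by Tnnt2, Myl7, Myh7 and Tnni1 (summed level 15.0 to 15.1 in RFC1-/- embryos, against 14.2 to 14.5 in RFC1+/+ embryos). Of 12 mesenchyme genes 3 fell, Prrx1, Meox2 and Meox1 (13.4 to 13.7 in RFC1-/- embryos, against 13.7 to 13.9 in RFC1+/+ embryos), and of 10 neural crest genes 2 fell, Tfap2b and Twist1 (12.9 to 13.3 in RFC1-/- embryos, against 13.3 to 13.5 in RFC1+/+ embryos). The part of these cell types in the falls of the neuron structure genes was not tested.

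**Figure D4:**
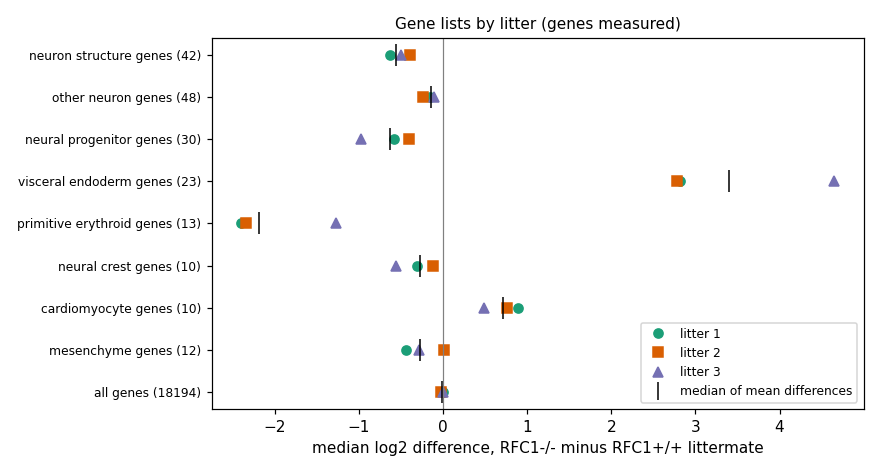
Median log2 difference RFC1-/- minus RFC1+/+ of each gene list in litters 1, 2 and 3 (circles, squares, triangles), with the median of the mean differences as a black line and the number of genes measured in brackets. The neuron structure genes and the neural progenitor genes lie left of 0 in all 3 litters, at -0.56 and -0.64, the other neuron genes lie near -0.15, and all genes lie at -0.01.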

How the data were processed

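Whole E9.5 embryos, 3 RFC1-/- and 3 RFC1+/+, were measured on Affymetrix mouse arrays after amplification of the RNA. The authors deposited log2 values made by RMA (background correction, quantile normalization, median polish) for 45101 probe sets, and 0 columns were left unused. The sources used here give no software versions. Array medians lay between 5.43 and 5.49. Arrays have no read depth, and their number limits the precision. In the platform annotation 34958 probe sets had 1 symbol, 932 several and 9211 none. Each of 18194 genes was read on its single-symbol probe set with the highest mean. With limma 3.58.1 in R 4.3.3 and litter as a block, RFC1-/- minus RFC1+/+ was estimated for each gene, and p-values were adjusted by Benjamini-Hochberg over all genes at 0.05. Fits over all probe sets and over the 2982 left by the 1.5-fold filter, at 0.001, were added. The script was tested on simulated data. Litters come from the labels and the methods, and same-litter residuals correlated at 0.01, -0.03 and -0.20. Members and lists of other neuron, neural progenitor, visceral endoderm, primitive erythroid, neural crest, cardiomyocyte and mesenchyme genes were chosen with earlier results of these data known. Values on each array are given for the 14 largest falls and for members whose probe sets differ in direction or call, and up to 4 genes of each other list are named. Some genes of these lists are not reported here. Summed levels are log2 of the sum of linear values. Alternatives were no block, each litter left out, an intensity trend, a second quantile normalization, median centring, dim probe sets left out, sex as a covariate, averaging all probe sets of a gene, no variation filter and a random-variance test. Python 3.11.15 with pandas 2.3.3, numpy 2.4.6 and matplotlib 3.10.9 made the promoter tables and plots.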

Additional observations from a re-analysis of the deposited data

How the results depend on the processing

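No alternative turned the direction of a gene that fell, and 0 of the 42 genes rose under any of them. The count of 18 lay between 15 and 20 with each litter left out and between 17 and 23 under the other settings, and Lrrn1, Elavl4, Nefm, Stmn3, Tubb3, Stmn2, Fez1, Rfx4, Dpysl4, Dclk1, Nefl, Astn1, Pou4f1 and Elavl2 passed under all 10. With all probe sets of a gene averaged, those below background included, the differences of Lrrn1, Dpysl4, Dclk1 and Rfx4 were -0.66, -0.59, -0.57 and -0.77, and Map2 and Ncam1 were lost at -0.27 and -0.25 (adjusted p = 0.138 and 0.207 from limma). Ncam1 was also lost with arrays centred on their median (adjusted p = 0.0710 from limma). Without the replicate block, that is without the pairing of littermates, 17 genes (Syt11 lost, adjusted p = 0.0512 from limma), 29 probe sets and 9 other neuron genes fell, and 1 probe set passed the level of the methods. Leaving out a litter gave 8 to 31 probe sets for 28, 3 to 10 other neuron genes for 8, medians of -0.62 to -0.45 for -0.56, and 0 to 8 probe sets for the 5 at the level of the methods. The other neuron genes numbered 5 with dim probe sets left out and 14 with sex in the model, a fit with fewer degrees of freedom for the spread. At the level of the methods 0 probe sets passed in limma with no variation filter (63 of 122 at an unadjusted p under 0.05) and 0 in the random-variance test (35 of 43). In both settings 0 probe sets of the whole array passed. Of the 10 alternatives Dcx passed under 2, and its difference and those of Pou4f1 and Elavl4 are limited by signal at background in RFC1-/- embryos. The causes of these changes were not tested.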
